A study of Mus musculus with 27 samples.

Results

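Immediate early genes and heat shock genes are the first genes that many mammalian cells switch on after a growth signal or a stress. The 37 genes described here were taken by symbol from a table of 55401 mouse genes. They are 8 genes of the AP-1 transcription factor family (Fos, Fosb, Fosl1, Fosl2, Jun, Junb, Jund and the small Maf gene Maff), 4 other immediate early transcription factor genes (Egr1, Egr3, Nr4a1 and Srf), 7 early response genes (Ier2, Ier3, Ier5, Zfp36, Zfp36l1, Btg1 and Btg2), 7 feedback genes of the ERK and MAPK pathway (Dusp1, Dusp2, Dusp4, Dusp5, Dusp6, Spry2 and Spry4) and 11 heat shock genes (Hsf1, Hspa1a, Hspa1b, Hspa8, Hsph1, Hsp90aa1, Hsp90ab1, Dnajb1, Dnaja1, Bag3 and Hspb1).

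The cells were 4T1, a line from a mouse mammary carcinoma. Polyadenylated RNA of 9 groups was sequenced, with 3 libraries a group and 27 in all. Parental wild-type cells were set against 6 clones edited in a gene of mitochondrial division, the process that cuts mitochondria into smaller units. The clones were made with CRISPR-Cas9 and are named here by the codes in the data columns. They are gs1B8 and gs2_B4 for Drp1 (gene Dnm1l, the dividing GTPase), gs1_B11 and gs2_F6 for Fis1, which sits in the outer membrane of mitochondria, and gs1_B4 and gs1_C8 for Mff, a receptor for Drp1. The labels number the clones of a genotype and do not tie those numbers to the codes. In a separate arm, wild-type cells were kept for 3 days with leflunomide, an inhibitor of the pyrimidine synthesis enzyme DHODH, or with its vehicle DMSO. Each knockout group is a single clone, so that what the knockout did and what that clone already was cannot be told apart within it. All 6 clones were compared with the same 3 parental libraries. Nothing in the labels says that the libraries of a group came from separate cultures, so the p-values speak only of the spread among these samples.

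An immediate early gene can be transcribed without new protein synthesis. Kinases such as ERK phosphorylate transcription factors that already sit on its promoter (the serum response factor SRF with its partners on CArG boxes, CREB on cyclic AMP response elements), and the resulting mRNA is short-lived. The products include AP-1 and EGR transcription factors, the mRNA decay factors of the Zfp36 family, and the DUSP phosphatases and Sprouty proteins, which dampen the same kinases. Heat shock genes answer to HSF1, which binds heat shock elements when unfolded protein draws chaperones away from it, while Hspa8 and Hsp90ab1 are chaperone genes that most cells express all the time.

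The libraries of parental cells and clones held 20715428 to 31295937 counts and those of the drug arm 18492020 to 24658747. DMSO replicate 3 stood apart: the precursor of ribosomal RNA (45S) took 23.2% of its counts, where the other 26 libraries had 1.60% to 5.72%. Dnm1l mRNA stood at 31.2% and 18.7% of the parental level in its clones, Fis1 at 44.3% and 36.1%, and Mff at 54.4% and 49.6%. Of the epithelial markers Epcam lay between 151 and 282 CPM (counts scaled to the library total, with TMM factors) over the 9 group means and Krt8 between 418 and 912 CPM. The basal keratins differed: Krt5 was at or near 0 (at most 0.038 CPM), while Krt14 lay between 8.89 and 204 CPM. Krt19 lay between 59.4 and 260 CPM. Of the leukocyte markers Cd68 lay between 3.46 and 8.39 CPM and Ptprc between 0.0278 and 0.149 CPM, with Adgre1 and Cd3e at 0 in every group. The summed level of 3 endothelial markers stayed at or below 0.25 CPM and that of 5 fibroblast markers at or below 7.40 CPM, nearly all Pdgfra. In bulk RNA, fewer cells that express a gene and less of its RNA per cell cannot be told apart.

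Among the members the levels differed widely. Per kilobase of exon, Hsp90ab1 and Hsp90aa1, which encode the cytosolic HSP90 chaperones, stood highest in parental cells at 1350 and 1020 CPM per kb, followed by Hspa8, the constitutive HSP70 gene, at 699 CPM per kb. Ier3, an early response gene that modulates cell survival, was the highest immediate early gene at 198 CPM per kb. Btg1, an antiproliferative gene, stood at 56.1 CPM per kb, Jund at 43.4 and Fosl1 at 33.0. The classical immediate early genes were low in these cells, which had not been stimulated as far as the labels say. Jun stood at 10.9 CPM per kb, Egr1 at 1.68, Fos at 0.385 and Egr3 at 0.181. No exon length was used for Junb and Ier2, whose gene models differ between the count table and the annotation. Hspa1a was the only member with 0 counts in all parental libraries, and it was too low to be tested.

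Differences were tested with edgeR's quasi-likelihood test. A gene was called where its p, adjusted by the Benjamini-Hochberg method over all 13940 genes tested in the knockout arm, was below 0.05. Of the 36 members tested, 14 were called in gs1B8 (9 higher, 5 lower), or 38.9%, where 29.5% of all genes were called. In gs2_B4 24 members were called (18 higher, 6 lower), 66.7% against 50.3% of all genes, and in gs1_B11 21 (16 higher, 5 lower), 58.3% against 47.3%. In gs2_F6 8 members were called (2 higher, 6 lower), 22.2% against 31.3%. In gs1_B4 21 were called (13 higher, 8 lower), 58.3% against 47.7%, and in gs1_C8 18 (8 higher, 10 lower), 50% against 46.7%, which is close to the background. Every one of these clone counts includes a call of Hspb1, which passed the low-count filter only through its gs1_C8 libraries. By direction, 12.1% of all genes were called higher and 17.4% lower in gs1B8, 24.1% and 26.3% in gs2_B4, 21.4% and 25.9% in gs1_B11, 13.1% and 18.2% in gs2_F6, 20.9% and 26.8% in gs1_B4, and 21.5% and 25.2% in gs1_C8. The member median of the log2 fold change was 0.05 in gs1B8, 0.31 in gs2_B4, 0.11 in gs1_B11, 0.03 in gs2_F6, 0.08 in gs1_B4 and -0.07 in gs1_C8, beside medians over all genes between -0.023 and 0.003. The count in gs1B8 moved by over 1.5 times when certain libraries were left out. It was 9 without gs1B8 replicate 1, 8 without replicate 2, 9 without replicate 3, 7 without parental replicate 1 and 8 without parental replicate 2.

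**Figure D1:**
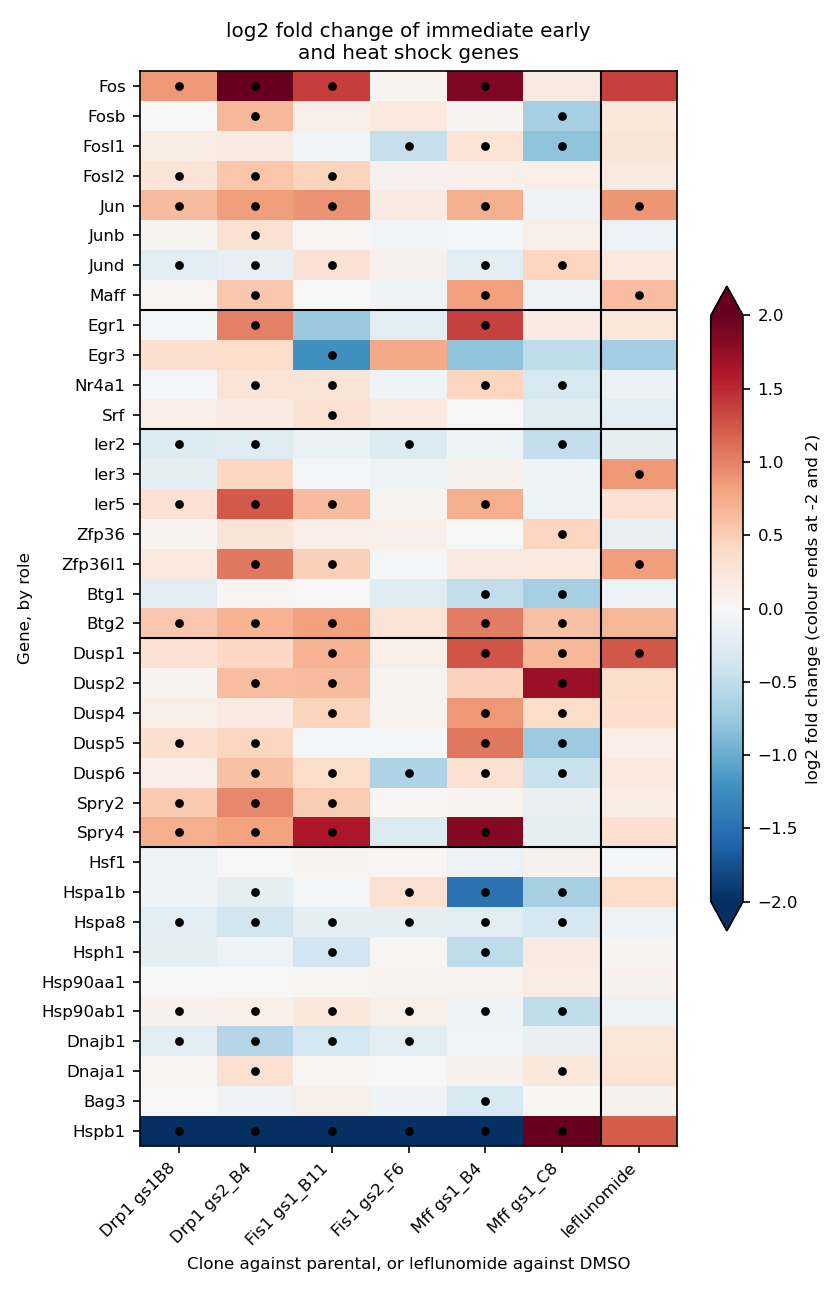
log2 fold changes of the 36 members tested (rows, ordered by role and separated by lines) in each clone against parental cells and with leflunomide against DMSO (columns). Red is higher, blue is lower, colours end at -2 and 2, and a dot marks a call at an adjusted p below 0.05. Fos, Jun, Ier5 and Spry4 are red with a dot in gs1B8, gs2_B4, gs1_B11 and gs1_B4 and carry no dot in gs2_F6 and gs1_C8, while Hspa8 is pale blue with a dot in all 6 clones.

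Fos and Jun, which form the classical AP-1 dimer, were higher in gs2_B4, gs1_B11, gs1_B4 and gs1B8 and overlapped the parental libraries in gs2_F6 and gs1_C8. Of the 8 AP-1 genes, 6 rose and 1 fell in gs2_B4, 4 rose and 0 fell in gs1_B11, 4 rose and 1 fell in gs1_B4, and 3 rose and 1 fell in gs1B8. In gs2_F6 0 rose and 1 fell, and in gs1_C8 1 rose and 2 fell. Over all genes the shares called higher were 24.1% in gs2_B4, 21.4% in gs1_B11, 20.9% in gs1_B4 and 12.1% in gs1B8, and those called lower 18.2% in gs2_F6 and 25.2% in gs1_C8, so that 2 of 8 lower in gs1_C8 is near the background.

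Fos (ENSMUSG00000021250.13, GRCm38 chromosome 12, 85473890 to 85477273) was near the limit of what this depth counts, with 16, 22 and 24 counts in the parental libraries, or 0.758, 0.868 and 1.09 CPM. It stood at 2.76, 4.30 and 4.10 CPM in gs2_B4, at 2.69, 2.98 and 4.39 CPM in gs1_B4 and at 1.58, 2.07 and 3.52 CPM in gs1_B11. Every library of these clones lay above the highest parental library. In gs1B8 Fos stood at 1.38, 1.44 and 2.18 CPM, also above all parental libraries. In gs2_F6 it stood at 0.870, 0.875 and 1.09 CPM and in gs1_C8 at 1.10, 1.08 and 0.924 CPM, and both clones overlapped the parental cells. On the log2 scale Fos rose by 2.02 ± 0.29 (SE) in gs2_B4, 1.86 ± 0.29 in gs1_B4 and 1.39 ± 0.30 in gs1_B11, with adjusted p of 7.8e-06, 2.5e-05 and 0.00072. The difference in gs1B8 was 0.87 ± 0.31 (adjusted p = 0.039), a call lost without gs1B8 replicate 3 (0.63), parental replicate 1 (0.77) or parental replicate 2 (0.85).

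Jun (ENSMUSG00000052684.4, chromosome 4, 95049034 to 95052222) was raised in the same 4 clones, at a higher level and with its highest mean in gs1_B11. It stood at 30.6, 37.9 and 36.2 CPM in parental cells, at 46.5, 55.2 and 62.6 CPM in gs1B8, at 55.6, 64.6 and 67.5 CPM in gs2_B4, at 56.9, 62.1 and 76.1 CPM in gs1_B11 and at 53.0, 55.6 and 65.6 CPM in gs1_B4. All 12 libraries of these clones lay above the parental range. In gs2_F6 it stood at 33.6, 40.0 and 44.7 CPM and in gs1_C8 at 30.5, 35.8 and 34.4 CPM, overlapping the parental cells. Without the low-count filter edgeR's test called Jun higher in gs2_F6 (0.19, adjusted p = 0.033). There it lay above the parental library of the same serial run in 3 of 3 runs (0.14, 0.08 and 0.31). Jun rose by log2 0.64 ± 0.13 in gs1B8, 0.83 ± 0.13 in gs2_B4, 0.90 ± 0.13 in gs1_B11 and 0.71 ± 0.13 in gs1_B4 (adjusted p of 0.00091, 2.4e-05, 1.1e-05 and 0.00016). These 4 calls held when each library of the comparison was left out in turn.

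Fosl1 encodes FRA1, the FOS relative that is often abundant in carcinoma cells. It stood at 64.8, 68.2 and 68.2 CPM in parental cells and lay below that range in gs2_F6 (46.9, 49.1 and 52.0 CPM) and in gs1_C8 (33.0, 40.9 and 42.4 CPM). It fell by 0.46 ± 0.09 in gs2_F6 and by 0.80 ± 0.09 in gs1_C8 on the log2 scale (adjusted p of 0.00077 and 8.3e-07). In gs1_B4, at 75.8, 78.4 and 93.7 CPM, it had a log2 fold change of 0.27 (adjusted p = 0.018), lost without gs1_B4 replicate 3 (0.17). With the serial run as a block, edgeR's test also called Fosl1 higher in gs1B8 (0.15, adjusted p = 0.035) and gs2_B4 (0.16, adjusted p = 0.013). The clones in which Fos and Jun overlapped the parental libraries were thus those with the lowest Fosl1.

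Fosl2, which encodes the related FRA2, rose by log2 0.56 in gs2_B4 and 0.44 in gs1_B11, where its means of 111.7 and 101.1 CPM stood beside 74.8 CPM in parental cells. In gs1B8 it was at 0.26 (adjusted p = 0.034), lost without gs1B8 replicate 2 (0.27) or 3 (0.20) or without parental replicate 1 (0.25) or 3 (0.25). Fosb was low, at 2.76 ± 0.12 CPM (SD, n = 3) in parental cells. It was at log2 0.67 in gs2_B4 (adjusted p = 0.015; 0.57 without gs2_B4 replicate 2, where the call was lost) and at -0.66 in gs1_C8 (adjusted p = 0.028). The latter call was lost without gs1_C8 replicate 3 (-0.53) or without parental replicate 1 (-0.66), 2 (-0.66) or 3 (-0.62). Junb was called in 1 of 6 clones by edgeR's quasi-likelihood test, gs2_B4, where it rose (log2 0.31, adjusted p = 4.6e-05), from 62.2 ± 2.68 to 77.9 ± 4.16 CPM (SD, n = 3). In gs1_C8 it was called higher in other settings. These were DESeq2 (0.14), its size factors (0.14), ribosomal RNA genes left out (0.14), a block for the serial run in the column numbers (0.12), and without parental replicate 3 (0.15).

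Jund, the JUN relative usually associated with resting cells, stood at 72.8, 73.4 and 71.0 CPM in parental cells, at 92.6, 85.9 and 86.8 CPM in gs1_B11 and at 108.1, 93.0 and 92.8 CPM in gs1_C8. It lay above all parental libraries in both clones and rose by log2 0.29 ± 0.06 and 0.43 ± 0.06 (adjusted p of 0.00086 and 1.6e-05). In gs1B8, gs2_B4 and gs1_B4 it was called lower, at -0.22, -0.17 and -0.22 (adjusted p of 0.014, 0.035 and 0.0074), and the groups did not overlap the parental libraries. The call in gs1B8 was lost without gs1B8 replicate 1 (-0.20) or 2 (-0.19) or parental replicate 1 (-0.20) or 2 (-0.20). That in gs2_B4 was lost without gs2_B4 replicate 2 (-0.13) or 3 (-0.18) or parental replicate 1 (-0.16) or 2 (-0.16), with DESeq2 and with DESeq2 size factors (-0.15 each) and with ribosomal RNA genes left out (-0.14). That in gs1_B4 was lost without parental replicate 2 (-0.19). Maff, a small Maf gene whose protein pairs with AP-1-like factors, rose in gs1_B4 from 25.1 ± 4.91 to 45.3 ± 2.13 CPM (log2 0.82 ± 0.12, adjusted p = 1.3e-05) and in gs2_B4 to 36.8 ± 3.75 CPM (0.54 ± 0.12, adjusted p = 0.0011).

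**Figure D2:**
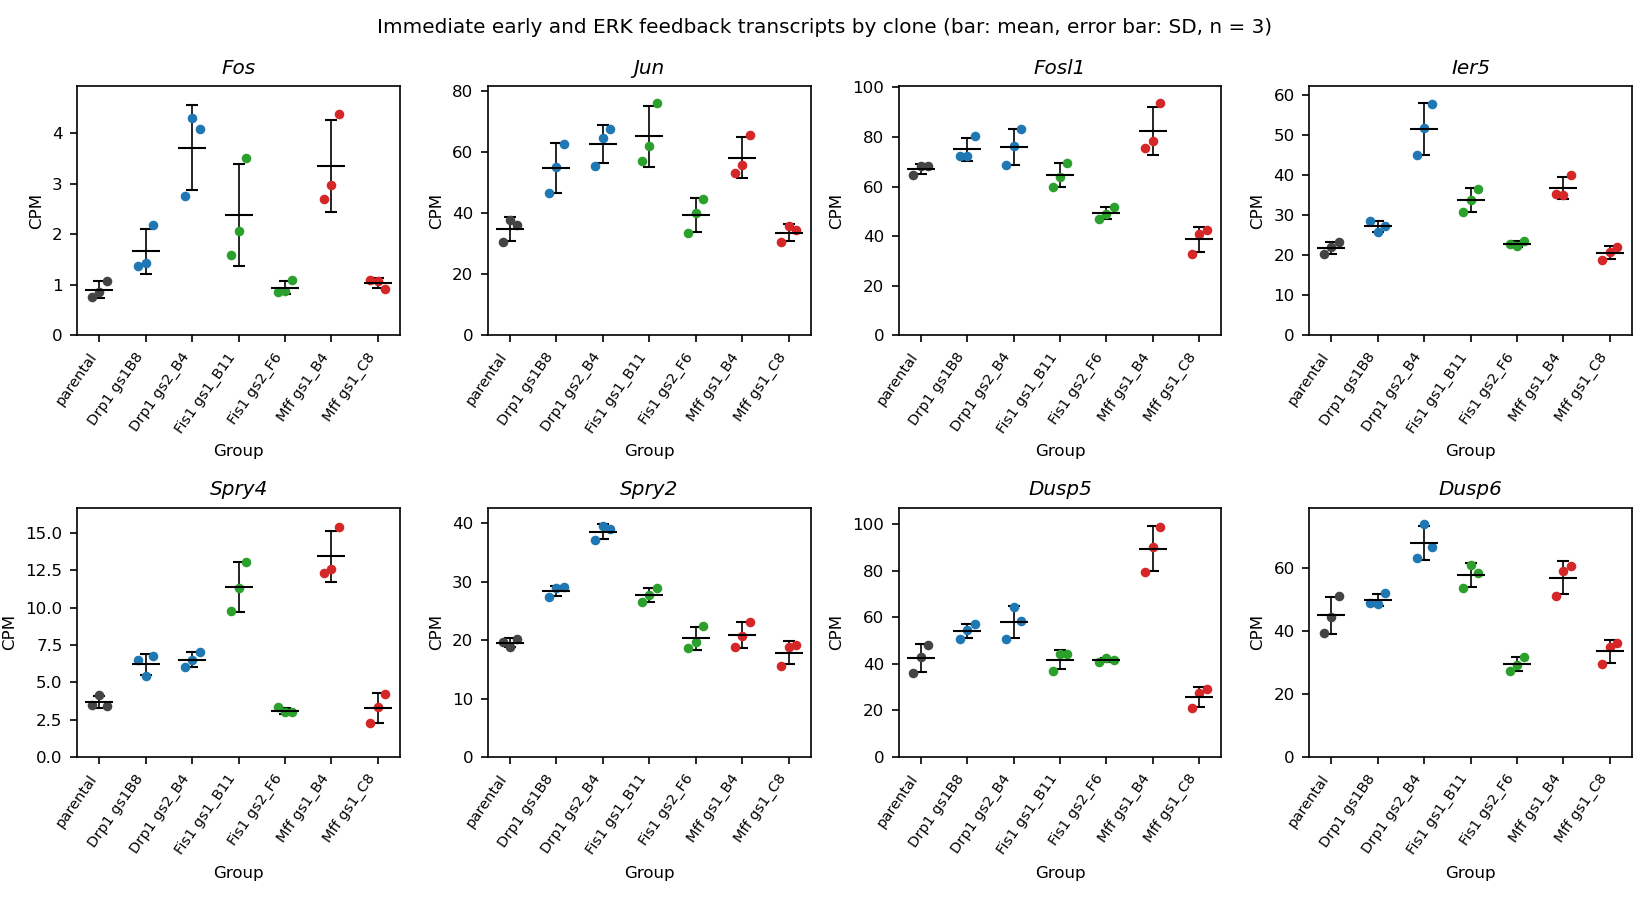
CPM (vertical axes, starting at 0) of 8 immediate early and feedback genes in each library of the parental cells and the 6 clones (points), with the group mean (horizontal bar) and SD (error bar, n = 3). Fos, Jun, Ier5 and Spry4 lie above all parental libraries in gs1B8, gs2_B4, gs1_B11 and gs1_B4 and do not in gs2_F6 and gs1_C8, and Dusp5 runs from a mean of 25.95 CPM in gs1_C8 to 89.5 CPM in gs1_B4.

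Among the other immediate early transcription factors, Egr1 varied most. Egr1, a zinc finger factor induced by ERK signalling, stood at 5.12, 8.29 and 9.20 CPM in parental cells, at 13.4, 20.7 and 25.6 CPM in gs1_B4 and at 11.6, 18.2 and 16.3 CPM in gs2_B4. Both clones lay above the parental range. The rise in gs1_B4 was log2 1.37 ± 0.32 (adjusted p = 0.0014) and held with each library left out. That in gs2_B4 was 1.01 ± 0.32 (adjusted p = 0.014) and was lost without gs2_B4 replicate 2 (0.87) or parental replicate 1 (0.80). In gs1_B11 Egr1 stood at 2.83, 4.68 and 6.08 CPM, lower in mean but overlapping the parental cells (log2 -0.74 ± 0.37, adjusted p = 0.10). With the serial run as a block (the column numbers form 3 runs with 1 library of each group) it was called there (-0.74, adjusted p = 0.00095), as it was without the low-count filter (-0.75) and in a fit of the 2 groups alone (-0.73). Its relative Egr3 had between 4 and 40 counts in each library of the knockout arm. It stood at 0.994, 0.986 and 0.408 CPM in parental cells and at 0.333, 0.479 and 0.183 CPM in gs1_B11, which overlapped. Its log2 fold change there was -1.22 ± 0.44 (adjusted p = 0.027), lost without gs1_B11 replicate 1 (-1.19) or 3 (-0.94) and without parental replicate 1 (-1.04) or 2 (-1.02).

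Nr4a1, an orphan nuclear receptor, rose from 5.16, 5.17 and 6.07 CPM to 8.12, 7.41 and 7.10 CPM in gs1_B4 (log2 0.43 ± 0.10, adjusted p = 0.001). Its other calls were smaller and did not hold in all fits. It was at 0.28 in gs2_B4 (lost without gs2_B4 replicate 1, 0.27, or 2, 0.27, or parental replicate 1, 0.24, or 2, 0.24) and at 0.26 in gs1_B11 (lost without gs1_B11 replicate 2, 0.21, or 3, 0.27, or parental replicate 1, 0.24, or 2, 0.23). In gs1_C8 it was at -0.32 (lost without gs1_C8 replicate 1, -0.25, or parental replicate 3, -0.25). Adjusted p for these 3 calls was 0.023, 0.035 and 0.013, and all were also lost without the low-count filter. Srf, the gene of serum response factor itself, was called in 1 clone, gs1_B11, at log2 0.31 (adjusted p = 0.015), lost without gs1_B11 replicate 1 (0.25) or parental replicate 3 (0.24), and its group means ran only from 20.8 CPM in gs1_C8 to 30.0 CPM in gs1_B11. With the serial run as a block Srf was also called lower in gs1_C8 (-0.24) and higher in gs2_F6 (0.19). Both were called without the low-count filter as well (-0.22 and 0.22).

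Ier5, an early response gene linked to heat shock factor activity, was higher in the same 4 clones as Fos and Jun. It stood at 20.2, 21.9 and 23.3 CPM in parental cells, at 44.9, 51.6 and 57.7 CPM in gs2_B4, at 35.2, 35.0 and 39.9 CPM in gs1_B4 and at 30.8, 33.9 and 36.6 CPM in gs1_B11. All libraries of these clones lay above the parental range, whereas gs2_F6 (22.7, 22.2 and 23.5 CPM) and gs1_C8 (18.9, 20.8 and 22.1 CPM) overlapped it. Ier5 rose by log2 1.22 ± 0.09, 0.72 ± 0.09 and 0.63 ± 0.09 in the 3 clones (adjusted p of 5.6e-10, 1.1e-06 and 7.5e-06). In gs1B8, at 28.5, 25.8 and 27.3 CPM, it was at 0.31 (adjusted p = 0.014), lost without gs1B8 replicate 1 (0.27) or parental replicate 1 (0.27).

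Zfp36l1, which encodes a protein that binds AU-rich elements and shortens mRNA life, rose in gs2_B4 from 32.3, 33.6 and 36.3 CPM to 64.7, 68.3 and 80.4 CPM (log2 1.05 ± 0.14, adjusted p = 2.6e-06). In gs1_B11, at 42.2, 43.3 and 56.3 CPM, it was at 0.47 (adjusted p = 0.0088), lost without gs1_B11 replicate 3 (0.34). Its relative Zfp36 was called in 1 clone, gs1_C8, at 0.43 (adjusted p = 0.011), lost without gs1_C8 replicate 3 (0.33). In gs2_B4 Zfp36 was called higher with the serial run as a block (0.25), without the low-count filter (0.27) and without parental replicate 3 (0.36).

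Btg2, an antiproliferative gene and a target of p53, was higher in mean in all 6 clones. From 1.89, 3.04 and 4.03 CPM in parental cells it rose to 5.86, 6.46 and 6.40 CPM in gs1_B4, 4.87, 5.16 and 5.81 CPM in gs1_B11 and 4.88, 5.499 and 4.35 CPM in gs2_B4 (log2 1.03 ± 0.19, 0.82 ± 0.19 and 0.70 ± 0.19, adjusted p of 0.00013, 0.0014 and 0.0046). These clones lay above the parental range, which is itself wide. In gs1B8 it was at 0.54 (adjusted p = 0.041), lost without gs1B8 replicate 2 (0.51) or 3 (0.48) or parental replicate 1 (0.32) or 2 (0.56), and in gs1_C8 at 0.58 (adjusted p = 0.017), lost without gs1_C8 replicate 3 (0.49) or parental replicate 1 (0.37). Btg1 was called lower in both Mff clones. Its parental level of 296.1 ± 14.9 CPM compared with 215.7 ± 24.6 CPM for gs1_B4 and 187.4 ± 16.6 CPM for gs1_C8 (SD, n = 3), or log2 -0.49 ± 0.10 and -0.67 ± 0.10 (adjusted p of 0.00036 and 1.2e-05). The fall was not confined to them. With the serial run as a block, edgeR's test also called Btg1 lower in gs1B8 (-0.23, adjusted p = 8.5e-05) and gs2_F6 (-0.26, adjusted p = 2.1e-05). In both it lay below the parental library of the same run in 3 of 3 runs.

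Ier2, an early response gene of nuclear location, fell in gs1_C8 from 20.3, 19.6 and 23.5 CPM to 12.7, 16.2 and 16.2 CPM (log2 -0.50 ± 0.10, adjusted p = 0.00038). Its calls in gs1B8 (-0.27), gs2_B4 (-0.24) and gs2_F6 (-0.27) had adjusted p of 0.046, 0.047 and 0.048. Each was lost with DESeq2 (-0.26, -0.23 and -0.26) and in at least 4 fits that left out a library. For gs1B8 these were gs1B8 replicate 1 (-0.20) or 2 (-0.24) and parental replicate 1 (-0.29) or 3 (-0.19). For gs2_B4 they were gs2_B4 replicate 1 (-0.19) or 2 (-0.25) and parental replicate 1 (-0.27) or 3 (-0.16). For gs2_F6 they were gs2_F6 replicate 1 (-0.28), 2 (-0.22) or 3 (-0.30) and parental replicate 1 (-0.28) or 3 (-0.19). Ier3 was called in none of the 6 clones by edgeR's quasi-likelihood test. Its log2 fold changes lay between -0.19 and 0.41, with standard errors of 0.24 to 0.25, and its parental libraries at 161.2, 212.0 and 299.2 CPM spanned most clone values. With the serial run as a block Ier3 was called higher in gs2_B4 (0.42, adjusted p = 2.8e-05), where it was above the parental library of the same run in 3 of 3 runs (0.58, 0.35 and 0.40). In gs2_B4 it was also called without the low-count filter (0.43) and without parental replicate 3 (0.68), and in gs1B8 it was called lower without that filter (-0.18).

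Of the 7 feedback genes of the ERK and MAPK pathway, 5 rose and 0 fell in gs2_B4 and in gs1_B4, 6 rose and 0 fell in gs1_B11, and 3 rose and 0 fell in gs1B8. In gs2_F6 0 rose and 1 fell, and in gs1_C8 3 rose and 2 fell. The shares of all genes called higher were 24.1%, 20.9%, 21.4% and 12.1% in gs2_B4, gs1_B4, gs1_B11 and gs1B8 and 21.5% in gs1_C8, and 18.2% were called lower in gs2_F6. The median log2 fold changes of the 7 genes were 0.58 in gs2_B4, 0.86 in gs1_B4, 0.51 in gs1_B11, 0.29 in gs1B8, 0.04 in gs2_F6 and -0.15 in gs1_C8.

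Spry4 (ENSMUSG00000024427.7, chromosome 18, 38586247 to 38601415), an inhibitor of receptor tyrosine kinase signalling, stood at 3.50, 4.14 and 3.44 CPM in parental cells. It stood at 12.3, 12.6 and 15.4 CPM in gs1_B4, at 9.75, 11.3 and 13.1 CPM in gs1_B11, at 6.03, 6.49 and 7.01 CPM in gs2_B4 and at 6.47, 5.41 and 6.75 CPM in gs1B8. All 12 libraries lay above the parental range. In gs2_F6 it stood at 3.32, 2.98 and 2.98 CPM, just below that range, and in gs1_C8 at 2.27, 3.34 and 4.23 CPM, across it. Spry4 rose by log2 1.83 ± 0.16, 1.62 ± 0.16, 0.80 ± 0.17 and 0.73 ± 0.17 in gs1_B4, gs1_B11, gs2_B4 and gs1B8 (adjusted p of 1.6e-08, 1.1e-07, 0.0005 and 0.0025), and each call held with any library left out.

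Spry2, of the same family, rose from 19.6 ± 0.74 CPM to 28.4 ± 0.907 in gs1B8, 38.6 ± 1.28 in gs2_B4 and 27.7 ± 1.25 in gs1_B11 (log2 0.53, 0.96 and 0.51, adjusted p of 6.7e-05, 6.2e-09 and 5e-05). In gs1_B4, where Spry4 was highest, Spry2 stood at 20.9 ± 2.16 CPM (SD, n = 3), a log2 fold change of 0.07 ± 0.08 (adjusted p = 0.55).

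Dusp5 encodes a nuclear phosphatase of ERK, and its promoter is shown because it holds a pair of CArG boxes, the sites bound by serum response factor. The RefSeq window on GRCm38.p6 covers 250 bases before the start to 50 after it, at chr19:53528895-53529194 on the plus strand, read 5′ to 3′, with the adjoining CArG boxes in capitals.
Dusp5: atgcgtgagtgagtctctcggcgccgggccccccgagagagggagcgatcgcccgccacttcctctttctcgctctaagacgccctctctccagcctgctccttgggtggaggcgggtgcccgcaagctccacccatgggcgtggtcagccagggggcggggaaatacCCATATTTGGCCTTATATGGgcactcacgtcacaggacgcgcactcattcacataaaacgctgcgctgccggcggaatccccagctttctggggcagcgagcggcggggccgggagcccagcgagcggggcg
The boxes begin at -82 and -72 from the start. A CArG box was present in 1.63% of 32851 such windows, and among the 27 members with a window in the table it was found for Dusp5, Srf and Zfp36.

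Dusp5 (ENSMUSG00000034765.6, chromosome 19, 53529109 to 53542431) stood at 36.2, 43.1 and 48.1 CPM in parental cells, at 79.4, 90.3 and 98.7 CPM in gs1_B4 and at 21.1, 27.5 and 29.2 CPM in gs1_C8. The 2 Mff clones lay wholly above and wholly below the parental range. The log2 fold changes were 1.05 ± 0.11 and -0.73 ± 0.12 (adjusted p of 2.7e-07 and 5.5e-05). It also rose in gs2_B4, to 50.6, 64.3 and 58.6 CPM (0.43 ± 0.12, adjusted p = 0.004), while its call in gs1B8 (0.34, adjusted p = 0.034) was lost without gs1B8 replicate 2 (0.33) or 3 (0.30) or parental replicate 1 (0.25) or 2 (0.36). Both Fis1 clones stood at the parental level, with log2 fold changes of -0.02 and -0.04.

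Dusp6, a cytoplasmic ERK phosphatase, stood at 39.4, 44.5 and 51.2 CPM in parental cells. It rose to 63.4, 74.0 and 66.9 CPM in gs2_B4 and 53.6, 61.1 and 58.7 CPM in gs1_B11, and was called at 51.2, 59.1 and 60.9 CPM in gs1_B4, which touched the parental range. It fell to 27.3, 29.4 and 31.9 CPM in gs2_F6 and 29.4, 35.1 and 36.4 CPM in gs1_C8, both below every parental library. The log2 fold changes were 0.58, 0.36, 0.31, -0.62 and -0.44 in this order, with standard errors of 0.09 to 0.10 and adjusted p of 3.4e-05, 0.0037, 0.01, 5.8e-05 and 0.001. Dusp4, a nuclear MAPK phosphatase, rose in gs1_B4 from 38.2 ± 3.51 to 70.9 ± 9.45 CPM (log2 0.86, adjusted p = 8.1e-06) and in gs1_B11 to 51.7 ± 6.29 CPM (0.44, adjusted p = 0.0067). In gs1_C8 it was at 0.37 (adjusted p = 0.02), lost without gs1_C8 replicate 3 (0.30) or parental replicate 1 (0.32).

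Dusp1 encodes a phosphatase that acts mostly on the stress kinases p38 and JNK. Its RefSeq window, chr17:26508423-26508722 on the minus strand of GRCm38.p6, is shown 5′ to 3′ because it holds a cyclic AMP response element, TGACGTCA, in capitals.
Dusp1: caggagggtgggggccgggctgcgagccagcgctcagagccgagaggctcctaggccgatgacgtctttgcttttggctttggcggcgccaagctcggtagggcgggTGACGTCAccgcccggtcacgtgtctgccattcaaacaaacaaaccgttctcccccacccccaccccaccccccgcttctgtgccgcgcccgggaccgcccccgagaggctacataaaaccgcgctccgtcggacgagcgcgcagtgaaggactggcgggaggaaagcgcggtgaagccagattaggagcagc
This element, which reads the same on both strands, was present in 1.79% of all windows and for the members Dusp1, Btg2 and Maff. Dusp1 stood at 5.12, 4.38 and 6.52 CPM in parental cells and rose in gs1_B4 to 10.4, 12.2 and 16.4 CPM, above the parental range (log2 1.26 ± 0.24, adjusted p = 0.00023). In gs1_B11 it was at 0.69 (adjusted p = 0.028), lost without gs1_B11 replicate 3 (0.40) or parental replicate 1 (0.68) or 2 (0.57). In gs1_C8, at 8.83, 8.08 and 8.54 CPM, it was at 0.66 (adjusted p = 0.035), lost without gs1_C8 replicate 1 (0.64), 2 (0.70) or 3 (0.67) or parental replicate 1 (0.65) or 2 (0.55).

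Dusp2, a phosphatase best known from activated lymphocytes, rose in gs1_C8 from 1.042, 1.93 and 1.31 CPM to 4.51, 4.85 and 5.15 CPM (log2 1.73 ± 0.20, adjusted p = 9.2e-07), above the parental range. It was at 0.61 in gs2_B4 (adjusted p = 0.023), lost without gs2_B4 replicate 3 (0.57) or parental replicate 1 (0.43) or 3 (0.55). In gs1_B11 it was at 0.63 (adjusted p = 0.022), lost without gs1_B11 replicate 1 (0.57) or parental replicate 1 (0.46) or 3 (0.56). An AP-1 site, TGACTCA, was found in the window of 1 member, Bag3, and in 5.20% of all windows. The EGR site GCGGGGGCG was found for 7 members (Dnaja1, Dusp2, Fosb, Fosl2, Nr4a1, Srf and Zfp36) and in 2.91% of windows, counting both strands. These matches are a description of the letters in the window.

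The heat shock genes moved in both directions. Of the 10 tested, 1 rose and 3 fell in gs1B8, 2 rose and 4 fell in gs2_B4, 1 rose and 4 fell in gs1_B11, 2 rose and 3 fell in gs2_F6, 0 rose and 6 fell in gs1_B4, and 2 rose and 3 fell in gs1_C8. Several of these counts are near the background: 24.1% of all genes were called higher in gs2_B4 and 21.5% in gs1_C8, and 25.2% were called lower in gs1_C8. The count farthest from it, 6 of 10 lower in gs1_B4, stood beside 26.8% of all genes. All these counts include Hspb1, a gene near 0 in most clones that passed the low-count filter only through its gs1_C8 libraries. The medians of the log2 fold change lay between -0.17 and 0.05. The regulator Hsf1 was called in none of the 6 clones by edgeR's quasi-likelihood test, with group means between 27.9 and 31.7 CPM, though it was called with the serial run as a block in gs1_B4 (-0.11, adjusted p = 0.043) and without gs1_C8 replicate 3 in gs1_C8 (0.16). Hsp90aa1, the more inducible HSP90 gene, was not called in that fit either, with means between 3997 and 4472 CPM. In gs1_C8, at log2 0.15 (adjusted p = 0.079), it was called higher with DESeq2 (0.17, adjusted p = 0.041), with ribosomal RNA genes left out (0.17), with the serial run as a block (0.15), without the low-count filter (0.16) and without gs1_C8 replicate 2 (0.22).

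**Figure D3:**
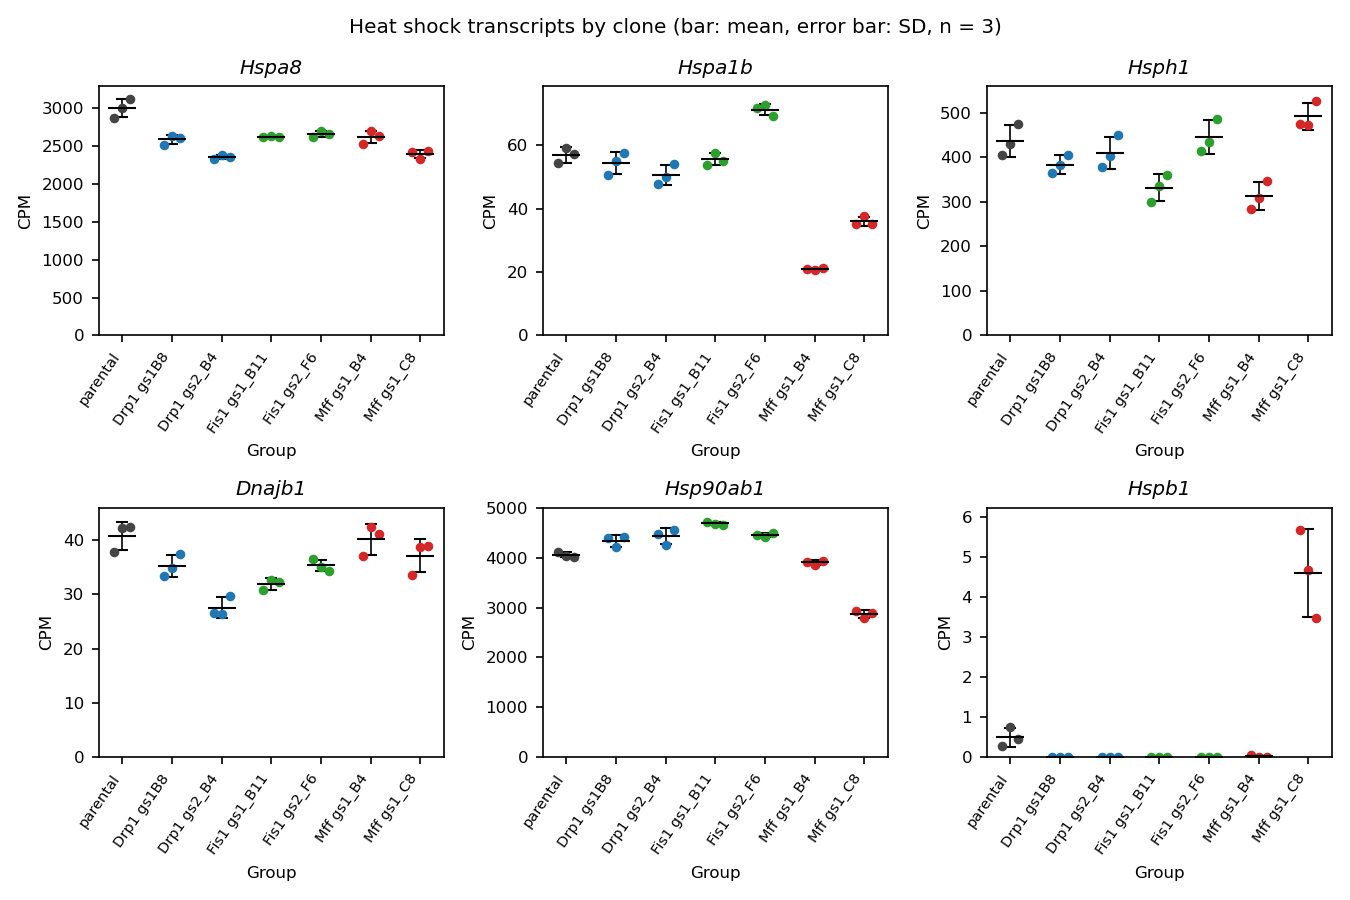
CPM (vertical axes, starting at 0) of 6 heat shock genes in each library of the parental cells and the 6 clones (points), with the group mean (horizontal bar) and SD (error bar, n = 3). Hspa8 lies below the parental libraries in all 6 clones, Hspa1b is lowest in gs1_B4 at a mean of 20.9 CPM, and Hspb1 is at 0 in 4 clones and at a mean of 4.61 CPM in gs1_C8.

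Hspa8 (ENSMUSG00000015656.17, chromosome 9, 40800984 to 40810087), the constitutive HSP70 gene, was lower in every clone. It stood at 2879, 3009 and 3127 CPM in parental cells, while the clone means ran from 2359 ± 29.7 CPM in gs2_B4 to 2664 ± 40.4 CPM in gs2_F6 (SD, n = 3). No clone library reached the lowest parental library, the highest being 2706 CPM in gs2_F6. Hspa8 fell by 0.23, 0.36, 0.19, 0.18, 0.23 and 0.34 on the log2 scale in gs1B8, gs2_B4, gs1_B11, gs2_F6, gs1_B4 and gs1_C8, with a standard error of 0.03 in each. The largest of the 6 adjusted p was 0.00032, and all calls held with any library left out. The 6 comparisons share their parental libraries.

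Hsp90ab1, the constitutive HSP90 gene, fell in gs1_C8 from 4121, 4041 and 4026 CPM to 2941, 2792 and 2884 CPM (log2 -0.51 ± 0.03, adjusted p = 9.8e-11). It rose a little in both Fis1 clones, to 4725, 4692 and 4669 CPM in gs1_B11 (0.21) and 4456, 4428 and 4494 CPM in gs2_F6 (0.12), and in gs2_B4 to 4490, 4251 and 4564 CPM (0.11). These 3 clones lay above all parental libraries (adjusted p of 1.7e-05, 0.0053 and 0.0061), and the call in gs2_B4 was lost without the low-count filter (0.13). The calls in gs1B8 (0.09) and gs1_B4 (-0.08), with adjusted p of 0.047 and 0.035, are small. That in gs1B8 was lost without the low-count filter (0.10), without gs1B8 replicate 1 (0.08) or 3 (0.07) or parental replicate 2 (0.09) or 3 (0.08), and that in gs1_B4 without gs1_B4 replicate 1 (-0.09) or 2 (-0.08) or parental replicate 1 (-0.05) or 2 (-0.06) and with DESeq2 (-0.06).

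The stress-inducible HSP70 genes Hspa1a and Hspa1b are near-identical neighbours, and their RefSeq promoter windows are shown to make this plain. They lie on the minus strand of GRCm38.p6 at chr17:34972107-34972406 and chr17:34959189-34959488, are read 5′ to 3′, and have a pair of heat shock units (GAANNTTC) in capitals.
Hspa1a: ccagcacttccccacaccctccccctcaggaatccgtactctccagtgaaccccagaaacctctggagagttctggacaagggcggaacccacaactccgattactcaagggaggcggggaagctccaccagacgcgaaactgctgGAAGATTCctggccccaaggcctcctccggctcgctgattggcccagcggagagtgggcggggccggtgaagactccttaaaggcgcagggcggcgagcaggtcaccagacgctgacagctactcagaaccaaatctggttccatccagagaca
Hspa1b: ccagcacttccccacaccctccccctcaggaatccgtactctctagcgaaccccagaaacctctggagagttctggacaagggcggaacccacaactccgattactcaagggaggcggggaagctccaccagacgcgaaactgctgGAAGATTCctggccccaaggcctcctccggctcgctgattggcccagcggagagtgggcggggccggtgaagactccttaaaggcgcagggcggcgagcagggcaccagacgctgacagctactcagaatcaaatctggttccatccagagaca
The windows are the same at 296 of 300 positions. Of the 50-base stretches of the Hspa1a transcript 58.8% also occur in Hspa1b, so reads can be assigned to either copy. Over all 27 libraries the table gave 6 counts to Hspa1a and 33392 to Hspa1b, and the level of Hspa1b is uncertain to the extent that it holds reads of its copy.

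With this limit, Hspa1b (ENSMUSG00000090877.3, chromosome 17, 34956436 to 34959238) stood at 54.3, 59.2 and 57.1 CPM in parental cells. It stood at 21.03, 20.6 and 21.2 CPM in gs1_B4 and at 35.0, 37.7 and 35.2 CPM in gs1_C8, well below the parental range in both Mff clones. It stood at 71.7, 72.7 and 69.3 CPM in gs2_F6, above that range. Hspa1b fell by 1.47 ± 0.06 in gs1_B4 and by 0.67 ± 0.05 in gs1_C8 on the log2 scale (adjusted p of 7.3e-14 and 4e-09), and rose by 0.31 ± 0.05 in gs2_F6 (adjusted p = 9.8e-05). It fell by 0.18 ± 0.05 in gs2_B4 (47.8, 50.1 and 54.1 CPM, adjusted p = 0.0065). All 4 calls held with any library left out. They also held with the counts of the copies summed, but with 6 counts in Hspa1a that sum is nearly Hspa1b alone. It cannot tell which copy the reads came from.

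Hspb1 (ENSMUSG00000004951.10, chromosome 5, 135887919 to 135889563) encodes the small heat shock protein HSP27. Its RefSeq window, chr5:135887669-135887968 on the plus strand of GRCm38.p6, is shown because Hspb1 had the widest range of all members and holds 2 heat shock unit pairs, in capitals.
Hspb1: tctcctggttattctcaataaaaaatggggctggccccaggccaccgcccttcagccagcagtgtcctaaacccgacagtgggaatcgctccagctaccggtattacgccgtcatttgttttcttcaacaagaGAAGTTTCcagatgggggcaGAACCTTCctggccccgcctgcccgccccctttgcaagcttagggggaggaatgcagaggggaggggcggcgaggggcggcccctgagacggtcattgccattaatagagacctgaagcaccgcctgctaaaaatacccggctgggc
Such a pair, GAANNTTC or TTCNNGAA, was present in 15.1% of all windows and for 9 members (Bag3, Dnaja1, Fosl2, Hspa1a, Hspa1b, Hspb1, Hsph1, Jun and Spry2).

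Hspb1 had 6, 19 and 10 counts in the parental libraries and 155, 130 and 79 counts in gs1_C8. It had 0 counts in every library of gs1B8, gs2_B4, gs1_B11 and gs2_F6, and 1 count in all of gs1_B4. In CPM the parental libraries stood at 0.284, 0.750 and 0.453 and those of gs1_C8 at 5.68, 4.67 and 3.48, with no overlap. With the floor set at 3 counts summed over a group, Hspb1 was at least 12.9-fold lower in gs1B8, 13.3-fold in gs2_B4, 12.4-fold in gs1_B11 and 13.4-fold in gs2_F6. In gs1_B4 the parental level was 40.9-fold higher, with a 95% counting interval of 6.88 to 1660 that takes in the bounds of the other 4 clones, so this ratio from 1 count does not place gs1_B4 below them. In gs1_C8 Hspb1 was 9.15-fold higher than in parental cells. Floors and intervals cover counting error only. By edgeR's quasi-likelihood test all 6 differences were called, with adjusted p between 2.3e-05 and 0.00037. Hspb1 passed the low-count filter of that fit only through its gs1_C8 libraries. Whether it was tested in any clone thus depended on gs1_C8. With at most 19 counts in a parental library, the level of this gene is near the limit of detection in all groups except gs1_C8.

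Dnajb1, the HSP40 co-chaperone that activates HSP70, fell in gs2_B4 from 37.9, 42.2 and 42.4 CPM to 26.5, 26.4 and 29.8 CPM (log2 -0.58 ± 0.07, adjusted p = 7.4e-07) and in gs1_B11 to 30.7, 32.7 and 32.4 CPM (-0.35 ± 0.07, adjusted p = 0.0003). Its calls in gs1B8 and gs2_F6 (-0.22 each, adjusted p of 0.018) were lost in 4 fits each that left out a library. For gs1B8 these were gs1B8 replicate 1 (-0.19) or 2 (-0.22) and parental replicate 2 (-0.19) or 3 (-0.20), and for gs2_F6 they were gs2_F6 replicate 2 (-0.21) or 3 (-0.21) and parental replicate 2 (-0.19) or 3 (-0.19). Hsph1, which encodes the HSP110 exchange factor of HSP70, stood at 435.8 ± 35.7 CPM in parental cells and fell in gs1_B11 (332.0 ± 29.9 CPM) and gs1_B4 (312.9 ± 31.1 CPM) (log2 -0.39 and -0.51, adjusted p of 0.00086 and 6e-05). With the serial run as a block, edgeR's test also called Hsph1 lower in gs1B8 (-0.19, adjusted p = 0.00016) and gs2_B4 (-0.1, adjusted p = 0.013). In gs1_C8 that fit called Hsph1 higher (0.16, adjusted p = 0.00038). Dnaja1, another HSP40, rose from 273.6 ± 15.8 CPM to 343.1 ± 9.95 in gs2_B4 and 319.5 ± 14.2 in gs1_C8 (log2 0.31 and 0.21, adjusted p of 2.6e-05 and 0.0015). Bag3, a co-chaperone of selective autophagy, was called in 1 clone, gs1_B4, where it fell from 42.7 ± 1.51 to 34.9 ± 3.23 CPM (log2 -0.32, adjusted p = 0.00027).

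Members also differed between clones of the same genotype. Between the Drp1 clones 14 members were higher and 2 lower in gs2_B4 than in gs1B8, 44.4% of the 36 tested against 41.0% of all genes (20.1% higher, 20.9% lower). Between the Fis1 clones 3 were higher and 17 lower in gs2_F6 than in gs1_B11, 55.6% against 47.6% (22.9% higher, 24.7% lower). Between the Mff clones 10 were higher and 19 lower in gs1_C8 than in gs1_B4, 80.6% against 54.7% (28.3% higher, 26.4% lower). The count higher includes Hspb1, which passed the low-count filter only through its gs1_C8 libraries. Fos was 1.15 ± 0.27 higher on the log2 scale in gs2_B4 than in gs1B8, 1.34 ± 0.29 lower in gs2_F6 than in gs1_B11 and 1.67 ± 0.28 lower in gs1_C8 than in gs1_B4 (adjusted p of 0.0016, 0.00077 and 3.9e-05). For Ier5 these differences were 0.91, -0.58 and -0.82, for Jun 0.19 (adjusted p = 0.26), -0.73 and -0.77, and for Spry4 0.07 (adjusted p = 0.78), -1.89 and -2.03. Dusp5 was 1.77 ± 0.12 lower on the log2 scale in gs1_C8 than in gs1_B4 (adjusted p = 1.3e-10), while Hspa1b and Hsph1 were higher there (0.80 and 0.67, adjusted p of 3.4e-10 and 1.4e-06). All of these calls held with any library left out.

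Between genotypes, with the counts of each clone summed and 2 clones a genotype, 0 of the 35 members tested were called in any of the 3 pairs by edgeR's quasi-likelihood test, where 0%, 0.00645% and 0.00645% of 15513 genes were called for Drp1 against Fis1, Drp1 against Mff and Fis1 against Mff. At an unadjusted p below 0.05 there were 0, 3 and 4 members. The share of all genes at that p was not counted, so these counts have no background beside them. DESeq2 called 1, Hspa1b in Fis1 against Mff knockouts (log2 1.16, adjusted p = 0.016). In edgeR that difference was 1.15 ± 0.29 (adjusted p = 0.53), from means of 63.4 and 28.5 CPM, and that between Drp1 and Mff knockouts was 0.88 ± 0.29 (adjusted p = 0.76). For Fos the genotype differences were 0.71, 0.29 and -0.42, each smaller than its standard error of 0.75.

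In the drug arm, 5 of 36 members were called with leflunomide against DMSO, all higher, or 13.9%, where 2.79% of 12603 genes tested were called (1.84% higher). The member median was 0.20 beside 0.004 for all genes. Dusp1 stood at 5.26, 5.42 and 6.34 CPM with DMSO and at 13.6, 14.7 and 11.9 CPM with leflunomide. Jun stood at 32.5, 29.2 and 30.7 CPM with DMSO and at 61.4, 57.6 and 50.5 CPM with leflunomide. Ier3 stood at 150.4, 158.3 and 206.7 CPM against 287.4, 280.0 and 366.3 CPM. The groups did not overlap for these genes, nor for Zfp36l1 (27.2, 25.2 and 30.0 against 44.8, 49.5 and 52.7 CPM) and Maff (20.6, 23.1 and 20.7 against 33.1, 36.8 and 28.6 CPM).

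With leflunomide the log2 fold changes by edgeR's quasi-likelihood test were 1.24 ± 0.13 for Dusp1, 0.88 ± 0.08 for Jun, 0.86 ± 0.15 for Ier3, 0.84 ± 0.09 for Zfp36l1 and 0.61 ± 0.11 for Maff, with adjusted p of 0.0066, 0.005, 0.028, 0.0073 and 0.032. None of these calls held in every fit that left out a library, and the number of members called was 1 without DMSO replicate 1, 1 without DMSO replicate 2, 3 without leflunomide replicate 1, 0 without leflunomide replicate 2 and 12 without leflunomide replicate 3. Jun was lost without leflunomide replicate 2 only (0.86, adjusted p = 0.055). Dusp1 was lost without DMSO replicate 1 (1.18) or 2 (1.21) or leflunomide replicate 2 (1.17), and Zfp36l1 without the same libraries (0.83, 0.78 and 0.83). Ier3 was lost without DMSO replicate 1 (0.77) or 2 (0.80) or leflunomide replicate 1 (0.92) or 2 (0.93). Maff was lost without DMSO replicate 1 (0.58), 2 (0.67) or 3 (0.59) or leflunomide replicate 1 (0.61) or 2 (0.53). The sizes of these changes thus moved little while their adjusted p crossed 0.05. Without DMSO replicate 3, the library rich in ribosomal RNA, 4 of the 5 calls were kept.

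Other members with leflunomide gave values but no call by edgeR's quasi-likelihood test in the fit of the drug arm. Fos stood at 0.957, 0.429 and 0.423 CPM with DMSO (20, 8 and 7 counts) and at 1.75, 1.93 and 1.12 CPM with leflunomide, without overlap (log2 1.37 ± 0.39, adjusted p = 0.11). With edgeR's test Fos was called without the low-count filter (1.38, adjusted p = 0.046) and with all 27 libraries in 1 fit (1.36, adjusted p = 0.01). Hspb1 had 10, 9 and 7 counts with DMSO and 24, 22 and 22 with leflunomide (1.21 ± 0.30, adjusted p = 0.073). The 10 heat shock genes tested had a median of 0.09 and 0 calls in the fit of the drug arm. At an unadjusted p below 0.05 there were 3 (Hspb1, Dnaja1 and Hspa1b), and the share of all genes at that p was not counted. DESeq2 called Dnaja1 (0.27, adjusted p = 0.014) and Hspa1b (0.36, adjusted p = 0.031) higher. With all 27 libraries in 1 fit Hspa1b (0.37), Dnaja1 (0.28) and Hspb1 (1.21) were called higher and Hsp90ab1 lower (-0.12). Without the low-count filter Hspa1b was called (0.37). Leflunomide replicate 3 lay apart for several members. Fosl1 stood at 75.7, 75.3 and 51.4 CPM in the 3 leflunomide libraries, Jund at 87.8, 81.4 and 59.4 CPM and Hspa1b at 76.8, 69.6 and 57.6 CPM. Without that library Fosl1 (0.41), Jund (0.33), Hspa1b (0.47), Dnajb1 (0.38), Btg2 (0.86), Fos (1.58) and Hspb1 (1.31) were called as well, with adjusted p between 0.011 and 0.048. Btg2 (0.66) and Ier5 (0.31) were called with all 27 libraries in 1 fit, and Dusp4 (0.33) without the low-count filter.

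**Figure D4:**
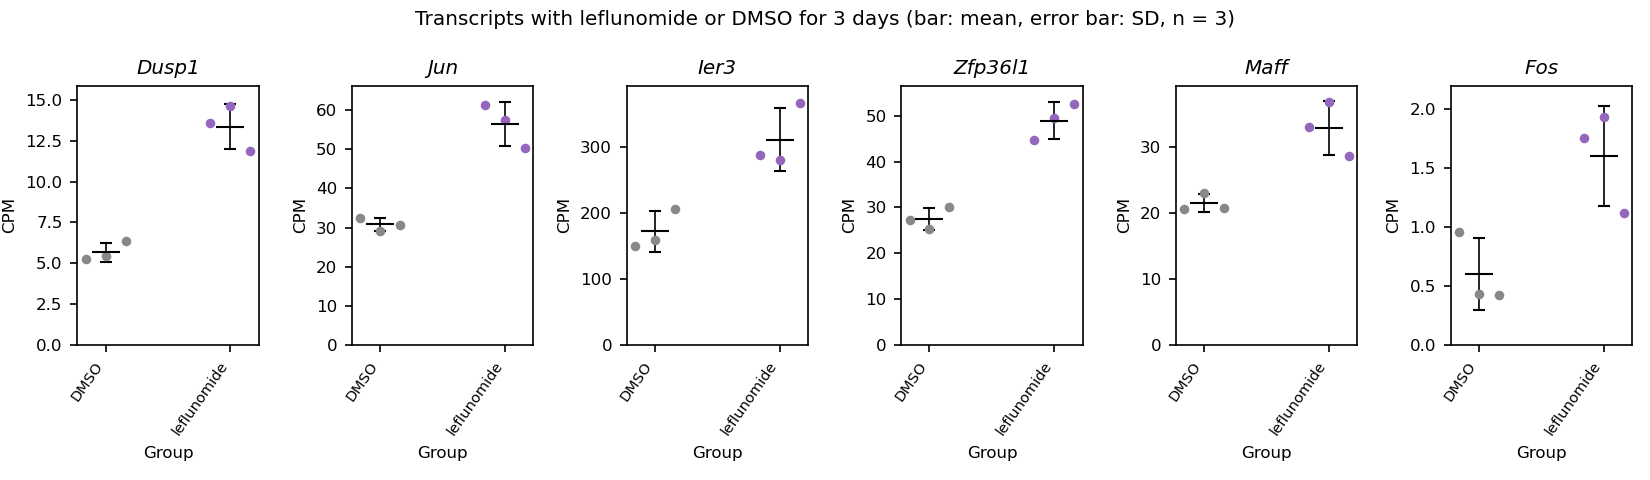
CPM (vertical axes, starting at 0) of 6 members in each library kept for 3 days with DMSO or leflunomide (points), with the group mean (horizontal bar) and SD (error bar, n = 3). The groups do not overlap for any of the 6 genes. In the fit of the drug arm the rises of Dusp1, Jun, Ier3, Zfp36l1 and Maff were called and that of Fos was not.

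Immediate early transcripts also varied between libraries of the same group. The biological coefficient of variation within groups, as edgeR estimates it, was 28% for Egr1, 24.7% for Egr3, 21.1% for Fos, 20.7% for Ier3 and 19.8% for Dusp1, beside a median of 6.37% over all genes tested. Among the heat shock genes it was 3.38% for Hsp90ab1 and 3.53% for Hspa8, but 25.4% for Hspb1. Of the other members, Junb (4.18%), Jund (5.35%), Nr4a1 (5.46%) and Spry2 (6.06%) lay below the median of all genes. The column numbers of the knockout arm form 3 serial runs with 1 library of each group, and nothing in the labels says what a run was. Over the 7 groups, 7 of 36 members (Maff, Ier3, Zfp36, Zfp36l1, Btg1, Dusp4 and Hsph1) were highest in the run 3 library in 7 of 7 groups, where 1.84% of all genes were. Srf and Hsf1 were lowest there in 7 of 7. The median range between the means of the runs was 0.22 on the log2 scale for the members and 0.10 for all genes, and it reached 0.90 for Egr1 and 0.65 for Ier3. Because each run holds every group, the differences between clones can be read within runs. Fos was higher than in the parental library of the same run in 3 of 3 runs in gs1B8 (0.85, 0.71 and 0.99 on the log2 scale), gs2_B4 (1.83, 2.28 and 1.89), gs1_B11 (1.04, 1.23 and 1.68) and gs1_B4 (1.80, 1.75 and 1.99). In gs2_F6 these differences were 0.19, 0.01 and 0.01, and in gs1_C8 0.53, 0.30 and -0.23.

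**Figure D5:**
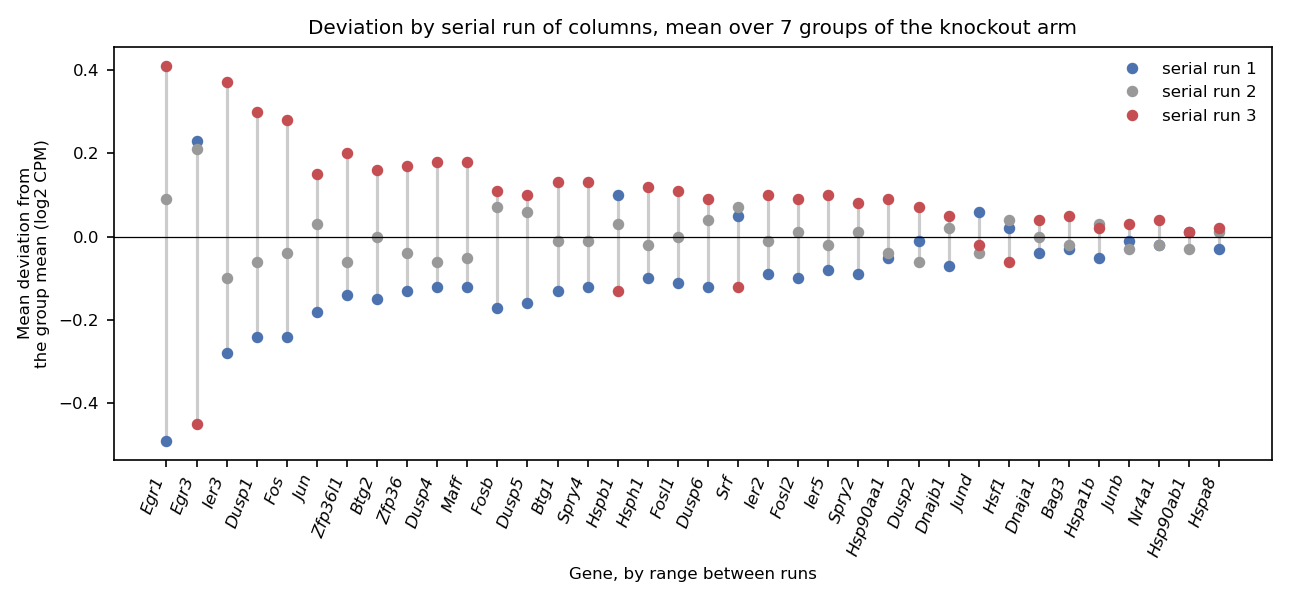
Mean deviation from the group mean (vertical axis, log2 CPM) of the libraries in each of 3 serial runs (colours) over the 7 groups of the knockout arm, for the 36 members tested (horizontal axis, ordered by the range between runs). Egr1, Ier3, Dusp1 and Fos lie lowest in run 1 and highest in run 3, Egr3 lies lowest in run 3, and Hspa8 and Hsp90ab1 differ by 0.04 between runs.

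Further genes of these pathways were counted from lists that hold no member. Of 32 further immediate early genes tested, 21 rose and 4 fell in gs2_B4, 17 and 7 in gs1_B4, 16 and 5 in gs1_C8, 10 and 5 in gs1_B11, 6 and 7 in gs1B8, and 3 and 5 in gs2_F6, with medians of 0.38, 0.33, 0.22, 0.06, -0.08 and 0.01. Over all genes 24.1% were called higher and 26.3% lower in gs2_B4, 20.9% and 26.8% in gs1_B4, and 21.5% and 25.2% in gs1_C8. These shares were 21.4% and 25.9% in gs1_B11, 12.1% and 17.4% in gs1B8, and 13.1% and 18.2% in gs2_F6. The 7 of 32 lower in gs1_B4 and both counts in gs2_F6 are thus near the background. In gs1_C8 some of these genes were raised. Atf3, a stress-induced repressor of the ATF family, rose there from 14.6 to 36.5 CPM (log2 1.31, adjusted p = 1.8e-07) and the kinase gene Plk3 from 17.2 to 32.9 CPM (0.92). Nr4a2, a relative of Nr4a1, rose in gs1_B4 from 4.10 to 12.4 CPM (1.56, adjusted p = 1.5e-08) and fell in gs2_F6 to 2.28 CPM (-0.87) and in gs1B8 to 2.41 CPM (-0.78). Sgk1, a kinase gene induced by serum, rose in gs2_B4 from 61.5 to 150.9 CPM (1.28, adjusted p = 4.1e-10), and with leflunomide from 49.2 to 110.3 CPM (1.17, adjusted p = 0.0015). In the drug arm 8 of these 32 rose and 0 fell (median 0.44), where 1.84% of all genes were called higher. The GTPase gene Rhob stood at 44.9 CPM with DMSO and 174.3 CPM with leflunomide (log2 1.96, adjusted p = 0.0015). Leaving out libraries was run for the members and not for these genes.

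Of 19 further ERK feedback and ETS target genes, 13 rose and 3 fell in gs2_B4, 12 and 1 in gs1_B4, 9 and 6 in gs1_B11, 5 and 2 in gs1B8, 3 and 4 in gs2_F6, and 5 and 8 in gs1_C8, with medians of 0.30, 0.26, 0.14, 0.06, 0.01 and -0.03. Over all genes 24.1% rose and 26.3% fell in gs2_B4, 20.9% and 26.8% in gs1_B4, and 21.4% and 25.9% in gs1_B11. These shares were 12.1% and 17.4% in gs1B8, 13.1% and 18.2% in gs2_F6, and 21.5% and 25.2% in gs1_C8. The count lower in gs1_B11, that higher in gs1_C8 and both in gs2_F6 are near the background. Spry1, another Sprouty gene, rose from 9.24 CPM to 17.7 in gs1_B4 (log2 0.91), 14.8 in gs2_B4 (0.66) and 13.7 in gs1_B11 (0.58). Spred3, a Sprouty-related inhibitor, rose in gs1_B4 from 8.28 to 16.2 CPM (0.94) and fell in gs1_C8 to 3.58 CPM (-1.23), and the cyclin gene Ccnd1 fell in gs1_C8 from 825.9 to 425.7 CPM (-0.97). The ETS factor gene Etv5 went the other way in gs1_B11, from 11.7 to 6.60 CPM (-0.82, adjusted p = 5e-06). In the drug arm 0 of the 19 rose and 1, Spred2, fell (-0.33, adjusted p = 0.049), where 1.84% of all genes were called higher and 0.944% lower. Of 19 genes of the SRF and AP-1 machinery tested, 10 rose and 4 fell in gs2_B4, 8 and 4 in gs1_B11, 7 and 4 in gs1_C8, 4 and 6 in gs1_B4, 5 and 1 in gs2_F6, and 3 and 3 in gs1B8. Over all genes 24.1% were called higher and 26.3% lower in gs2_B4, 21.4% and 25.9% in gs1_B11, and 21.5% and 25.2% in gs1_C8. These shares were 20.9% and 26.8% in gs1_B4, 13.1% and 18.2% in gs2_F6, and 12.1% and 17.4% in gs1B8. The counts in gs1_B4 and gs1B8, and the count lower in gs1_C8, are near the background. Jdp2, an AP-1 repressor gene, rose in gs1_B4 from 7.32 to 21.3 CPM (1.51, adjusted p = 1.9e-09), and Rps6ka3, which encodes the ERK-activated kinase RSK2, fell there from 119.0 to 74.4 CPM (-0.71).

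Of 42 further cytosolic chaperone and HSP90 co-chaperone genes, more fell than rose in both Mff clones (8 rose and 18 fell in gs1_B4, 7 and 19 in gs1_C8), while 17 rose and 9 fell in gs2_B4, 17 and 10 in gs1_B11, 10 and 9 in gs1B8, and 7 and 9 in gs2_F6. More genes fell than rose in the Mff clones over the whole table as well (26.8% lower and 20.9% higher in gs1_B4, 25.2% and 21.5% in gs1_C8). The shares called higher and lower were 24.1% and 26.3% in gs2_B4 and 21.4% and 25.9% in gs1_B11. They were 12.1% and 17.4% in gs1B8 and 13.1% and 18.2% in gs2_F6. The counts lower in gs2_B4, gs1_B11 and gs1B8, that higher in gs1_B4 and both in gs2_F6 are near the background. The medians of the 42 genes lay between -0.08 and 0.08. Hspa4l, an HSP110 relative, fell in gs2_B4, gs1_B11, gs2_F6, gs1_B4 and gs1_C8 from 201.7 CPM to means between 113.5 and 124.9 CPM. Cryab, a small heat shock protein of the lens and muscle, rose in gs1_C8 from 17.96 to 39.3 CPM (log2 1.12, adjusted p = 2.2e-09) and fell in gs2_B4 to 7.95 CPM (-1.20, adjusted p = 3.8e-09). Of 9 chaperone genes of the mitochondrion and endoplasmic reticulum, 5 rose and 0 fell in gs2_B4 and with leflunomide, 4 rose and 1 fell in gs2_F6, 3 rose and 0 fell in gs1_B11, 3 rose and 2 fell in gs1_B4, 1 rose and 3 fell in gs1_C8, and 1 rose and 0 fell in gs1B8. Over all genes 24.1% were called higher in gs2_B4, 13.1% in gs2_F6, 21.4% in gs1_B11 and 12.1% in gs1B8, but 1.84% with leflunomide. In gs2_F6 18.2% were called lower. The count higher in gs1B8 and that lower in gs1_B4 are near the background. With leflunomide Hspa5, the main HSP70 of the endoplasmic reticulum, rose from 1881 to 3162 CPM (log2 0.75, adjusted p = 0.0099), beside the cytosolic Hspa8 at log2 -0.11 (adjusted p = 0.71). Hspa9, the mitochondrial HSP70, rose in both Fis1 clones (0.35 and 0.32) and fell in both Mff clones (-0.23 and -0.22), from a parental level of 1034 CPM.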

How the data were processed

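Values were expected counts of RSEM for each gene, which the authors deposited after processing reads from polyA libraries (KAPA RNA HyperPrep, per the labels' protocols) with Trimmomatic 0.35 and RSEM on GRCm38 (mm10), per the submitters' processing notes. No source used here names the aligner or RSEM's version. Of the values 91.5% were whole numbers. Counts were rounded to whole numbers. Groups were read from column names. These carry a serial number and no replicate number, so replicates were numbered in serial order. All per-sample columns were used.

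Tests were run in R 4.3.3 with edgeR 4.0.16 (TMM factors, filterByExpr, quasi-likelihood F test, two-sided, Benjamini-Hochberg adjustment over all genes tested, threshold 0.05). One fit held parental cells and all clones, another the drug arm, and the genotype fit the sum of each clone's 3 libraries. CPM values use TMM factors over all 27 libraries. Coordinates are those in the count table, and exon lengths are from GENCODE M21. The procedure was checked on simulated data. Alternatives were DESeq2 1.42.0, its size factors, no filter, ribosomal RNA genes left out, Hspa1a and Hspa1b summed, the serial run as a block, other sets of libraries in the fit, and leaving out each library.

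The members and lists were chosen with earlier results of these data known. Values per library are given for members called in at least 4 of 6 clones, with a called log2 fold change of 1 or more, or called with leflunomide; other members are given by their means or calls. Of the further genes, up to 4 called per list and comparison, with a mean of at least 5 CPM over all libraries, could be named. Promoter windows are from RefSeq (GRCm38.p6), matched by symbol for 27 of 37 members. Counts limit the precision of genes such as Fos, Egr3 and Hspb1. Figures were drawn with matplotlib 3.10.9. Of the leukocyte markers, 1 is not reported here.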

Additional observations from a re-analysis of the deposited data

Results flagged for a closer look

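In 7 cases the clones of a genotype were called with opposite signs against the parental cells and also differed from each other by edgeR's quasi-likelihood test. Among the Fis1 clones this was Dusp6, the ERK phosphatase gene, which was at log2 0.36 in gs1_B11 and -0.62 in gs2_F6, a difference of -0.98 (adjusted p = 7.1e-08). Among the Mff clones there were 6. Dusp5 was at 1.05 in gs1_B4 and -0.73 in gs1_C8, a difference of -1.77 (adjusted p = 1.3e-10). Fosl1 was at 0.27 and -0.80, a difference of -1.08 (adjusted p = 6.4e-09), Dusp6 at 0.31 and -0.44, a difference of -0.75 (adjusted p = 1.4e-06), and Nr4a1 at 0.43 and -0.32, a difference of -0.76 (adjusted p = 1.7e-06). Jund went the other way, at -0.22 and 0.43, a difference of 0.65 (adjusted p = 3.8e-08). Hspb1 had 1 count in gs1_B4 and 364 in gs1_C8, and its fitted difference of 8.06 (adjusted p = 2.5e-07) depends on the prior count. It passed the low-count filter only through its gs1_C8 libraries. Of the calls behind these cases, Fosl1 in gs1_B4 (0.17 without gs1_B4 replicate 3), Jund in gs1_B4 (-0.19 without parental replicate 2) and Nr4a1 in gs1_C8 (-0.25 without gs1_C8 replicate 1 or parental replicate 3) were lost when a library was left out.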

How the results depend on the processing

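Of 176 calls of a member in a comparison, DESeq2 kept 168, its size factors in edgeR 171, no low-count filter 161, ribosomal RNA genes left out 171, and the serial run as a block and Hspa1a and Hspa1b summed 176 each. Fits of the 2 compared groups alone kept 150 of 166. Of 1056 fits of these calls with 1 library left out, 875 kept the call. No call changed sign in these alternatives. The count of called members in gs1B8, 14, ran from 7 to 10 when a library was left out. The count with leflunomide, 5, was 12 (11 higher, 1 lower) with all 27 libraries in 1 fit, 8 without the filter, and from 0 to 12 when a library was left out. For Fis1 against Mff knockouts it was 0, and 1 with DESeq2. Without the filter the split of higher and lower calls moved to 9 and 8 in gs1B8, 4 and 7 in gs2_F6 and 12 and 10 in gs1_C8. The cause was not tested. No paired analysis was possible by the replicate numbers in the sample labels, because the columns carry no replicate number to pair libraries by. What can be blocked is the serial run, which compares libraries within a run and whose meaning the labels do not give. With it as a block the counts were 18, 30, 22, 10, 23 and 24 for gs1B8, gs2_B4, gs1_B11, gs2_F6, gs1_B4 and gs1_C8, and 5 with leflunomide. Depth limits Hspb1, Egr3 and Fos, which had 0 to 40 counts in many libraries.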
